A study of Mus musculus with 16 samples.

Results

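Mouse embryos at the 8-cell stage came from 2 crosses, called A and B in the library names, and the 8 libraries of cross B were compared here with the 8 of cross A. These are all 16 libraries of the series. The mothers of cross A were hybrids of C57BL/6J×CBA/J. Those of cross B were hybrids of C57BL/6J×DBA/2J. Fathers carry the label C57BL/6J×DBA/2J in both, although the digits after "DBA/" count upward from library to library (2 to 10 in cross A, 2 to 9 in cross B). Every zygote had received an injection of double-stranded RNA (dsRNA) that lowers the transcript it matches: against GFP in controls (dsGFP), against Tfap2c (Tfap2cKD), against Tead4 (Tead4KD) or against both (DoubleKD). Each injection group held 2 libraries of cross A and 2 of cross B, and each library pooled 10 embryos, about 80 cells. No group was left uninjected. Of 43437 genes in the deposited table, the 11422 that reached 1 FPKM or more in 4 or more libraries entered the test.

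Embryos of the 2 crosses differ in the mother, whose genome is part CBA/J in cross A and part DBA/2J in cross B. She also brings the RNA and mitochondria of the oocyte. Whether the mitochondrial genome differs between the crosses was not tested. At the 8-cell stage the embryo still holds transcripts laid down in the oocyte, while its own genome has been active since the 2-cell stage. In mouse, that activation begins with a short burst of transcripts from repeated gene families such as Zscan4, Tdpoz, Usp17l and the Eif1a-like genes. The X chromosome from the father is being silenced at this stage in female embryos, under the control of Xist.

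FPKM is a count of fragments scaled to transcript length and to the mapped total of the library. Differences are given as log2(FPKM + 1) in cross B minus cross A, with the standard error (SE) and the adjusted p of a limma fit over all 11422 genes that held injection group as a term. On this scale the change of a low gene is understated. A gene passed at an adjusted p under 0.05. Nothing in the labels ties libraries to separate matings or days, so the p values rest on the spread among pools of embryos, which may be technical. Cross, litter, day of collection and library batch cannot be told apart. In pooled embryos, fewer cells of a kind and less RNA per cell cannot be told apart either.

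The libraries were alike in depth, from 0.873 to 1.12 of their mean as read from the lowest FPKM values, with absolute depth unknown. Mitochondrially encoded genes took 10.3% ± 1.18 of FPKM in cross A and 8.3% ± 1.06 in cross B (SD, n = 8 each; exact permutation within injection groups, two-sided, p = 0.0108, adjusted over 8 library measures 0.0329). In cross A 10235 ± 107 genes reached 1 FPKM, against 10387 ± 142 in cross B (SD, n = 8 each; exact permutation p = 0.00463, adjusted 0.0329). Added up, 10 Y-linked genes came to an FPKM of 38.7 ± 7.1 in cross A and 28.3 ± 7.28 in cross B (SD, n = 8 each; exact permutation p = 0.0185, adjusted 0.037). Total FPKM and the share of the 10 most abundant genes did not pass (exact permutation p = 0.889 and 0.86). The smallest p these 1296 arrangements allow is 0.00154. Tfap2c lay between 13.9 and 17.8 FPKM in the libraries given its dsRNA and between 28.3 and 43.2 in the others, so the groups matched their labels in both crosses. Tead4 lay between 5.4 and 14.8 FPKM with its dsRNA and between 19 and 58.4 without. Over all 4 injection groups neither target passed the test between crosses (Tfap2c -0.08, SE 0.08, adjusted p = 0.457; Tead4 0.34, SE 0.16, adjusted p = 0.122), but the groups went different ways. With dsGFP, Tfap2c was at 38.8 and 43.2 FPKM in cross A and at 28.3 and 32.4 in cross B, and with its own dsRNA alone at 13.9 and 15.4 against 16.1 and 17.8. Tead4 in Tfap2cKD was at 19 and 25.9 FPKM in cross A and at 30.8 and 37.4 in cross B. Of stage markers, Dppa3 lay between 5509 and 8679 FPKM, and Cdx2, a trophectoderm factor of later stages, was at most 0.341 FPKM in any library. DoubleKD_B1, and less so DoubleKD_B2, stood apart from the other libraries in genes of genome activation, and those results are given below with and without them.

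Many genes differed between the crosses, mostly by little. Of the 11422 genes, 3823 passed (33.5%), 1965 of them higher in cross B (17.2%) and 1858 lower (16.3%). The median size of the called differences was 0.47 on the log2 scale, and 66.4% of the called genes differed by under 1.5-fold. A further threshold of 2-fold left 341 genes (2.99%), 228 higher (2%) and 113 lower (0.989%) in cross B. In 386 genes (3.38%) the 8 libraries of one cross lay wholly above the 8 of the other, with cross B above in 147 (1.29%) and below in 239 (2.09%). The same direction was seen in all 4 injection groups for 87.8% of the called genes, against 39.9% of all genes tested. Genes were called on the mean of these same 4 differences, so calling favours genes with like signs. The 2 shares are therefore no measure of replication. The difference within each injection group, 2 against 2 libraries, came from a fit in which all 16 libraries shared 1 estimate of the spread. It passed for 904 genes in dsGFP (7.91%), 1639 in Tfap2cKD (14.3%), 1610 in Tead4KD (14.1%) and 1171 in DoubleKD (10.3%). Below, results in dsGFP alone are the dsGFP difference of this fit. The 4 differences share no library, though their tests share the spread. Across genes they correlated with Pearson r from 0.290 to 0.487 (11422 genes, which are not independent replicates).

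**Figure D1:**
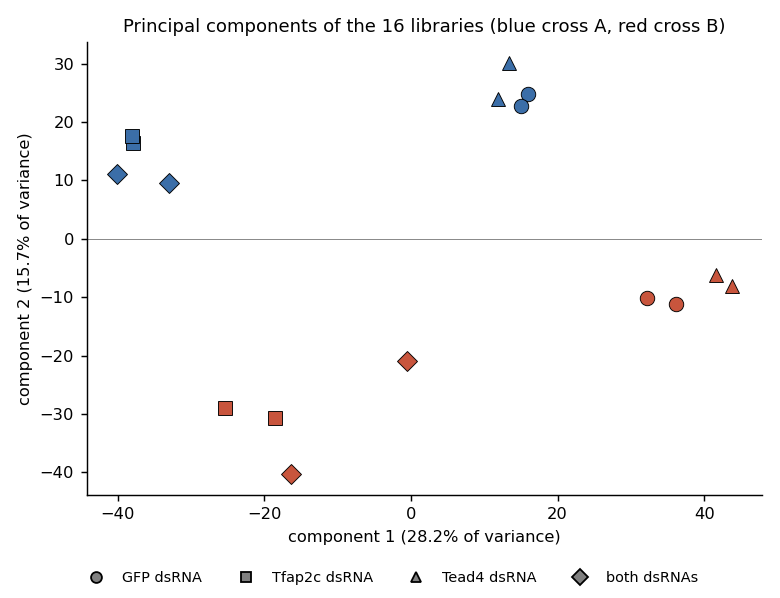
Principal components of log2(FPKM + 1) of the 16 libraries, component 1 on the x axis (28.2% of variance) and component 2 on the y axis (15.7%), with blue for cross A, red for cross B and the marker shape for the injected dsRNA. All cross A libraries lie above 9.6 on component 2 and all cross B libraries below 0, while on component 1 all 8 libraries with Tfap2c dsRNA lie below 0 and the 8 others above 0.

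Among single genes, some of the clearest gaps were in genes outside the lists. Zswim5, which encodes a zinc finger protein (chr4:116877402-116989105), ran from 2.75 to 5.97 FPKM in cross A (median 4.0) and from 0.0816 to 0.372 FPKM in cross B (median 0.189), a difference of -2.08 (SE 0.12, adjusted p = 5.88e-08). Every cross B library lay far below every cross A library. Hesx1, a homeobox gene, ran from 6.5 to 14.4 FPKM in cross A (median 10.6) and from 1.07 to 6.37 in cross B (median 2.76; -1.49, SE 0.13, adjusted p = 3.36e-06). Gtsf1, a factor of the piRNA pathway that silences transposons, ran from 22.7 to 42.3 FPKM in cross A (median 29.6) and from 5.08 to 15.2 in cross B (median 12; -1.48, SE 0.19, adjusted p = 7.07e-05). Both sets of ranges stood apart without overlap. Zswim5, Hesx1 and Gtsf1 were chosen after their values were seen, as were Naaa, Bola1, Prl3b1 and Isl2 below.

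In the other direction, Naaa, a lysosomal amidase, ran from 3.5 to 11.2 FPKM in cross A (median 5.63) and from 14.2 to 21.6 in cross B (median 17.9; 1.44, SE 0.11, adjusted p = 1.88e-06). Bola1, which encodes a mitochondrial protein, ran from 33.3 to 58.1 FPKM in cross A (median 39.2) and from 71.1 to 134 in cross B (median 99; 1.23, SE 0.09, adjusted p = 9.36e-07). Prl3b1, a prolactin-family gene known as placental lactogen II, ran from 43.1 to 108 FPKM in cross A (median 69.8) and from 141 to 179 in cross B (median 159; 1.29, SE 0.15, adjusted p = 2.78e-05). The 8 cross B libraries were above all cross A libraries in each of these 3 genes. Isl2, a LIM homeobox gene, behaved alike, with 0.426 to 5.97 FPKM in cross A (median 2.1) and 6.59 to 14.2 in cross B (median 9.74; 1.69, SE 0.19, adjusted p = 1.92e-05).

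**Figure D2:**
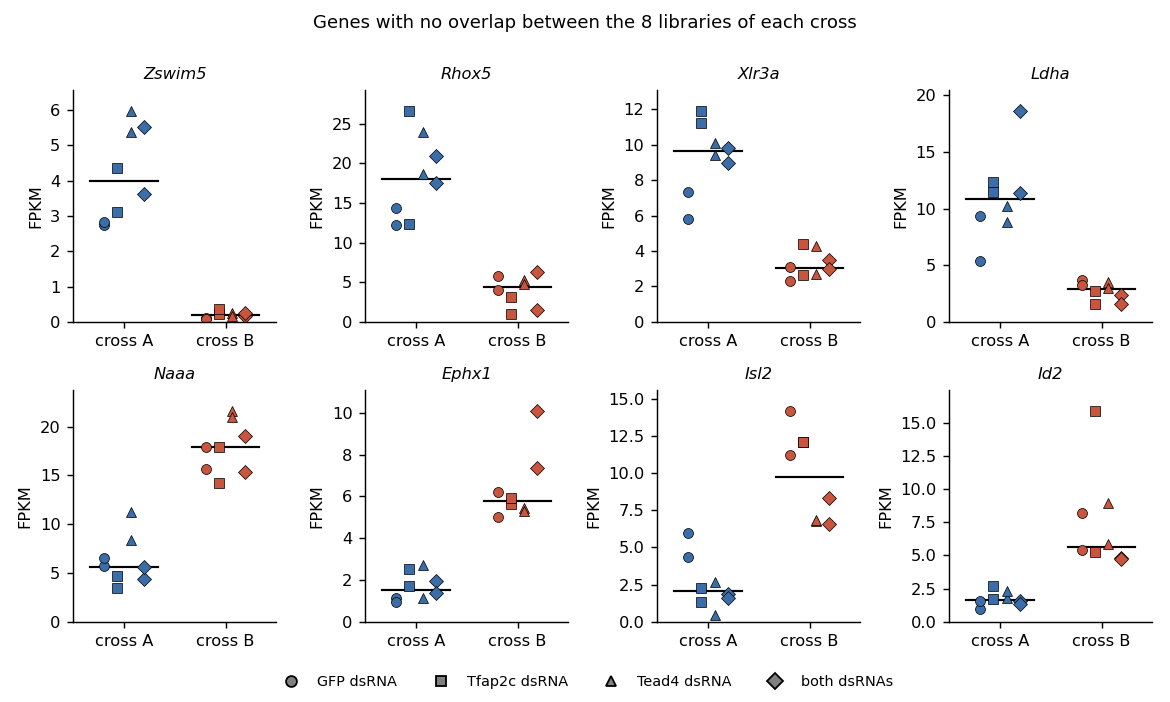
FPKM of 8 genes (y axis, linear, from 0) in each library of cross A and cross B (x axis), with 1 point per library, shape for the injected dsRNA and a line at the median of 8 libraries. Zswim5, Rhox5, Xlr3a and Ldha are lower and Naaa, Ephx1, Isl2 and Id2 higher in cross B, with no overlap in any of the 8 panels.

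Several of the 15 largest rises, among genes with a mean of at least 5 FPKM in a cross, had a wide spread in cross B. Npy, which encodes neuropeptide Y, ran from 0 to 5.74 FPKM in cross A (median 0.878) and from 0.181 to 51.9 in cross B (median 13.7; 2.31, SE 0.36, adjusted p = 0.000269), so its ranges overlapped. Stfa2l1, of the stefin family of protease inhibitors, ran from 0 to 5.59 FPKM in cross A (median 2.27) and from 3.38 to 45.3 in cross B (median 23; 2.53, SE 0.24, adjusted p = 6.57e-06). Esp24, of the exocrine gland-secreting peptides, ran from 4.61 to 17.2 FPKM in cross A (median 9.37) and from 21.5 to 127 in cross B (median 45.8; 2.25, SE 0.36, adjusted p = 0.000306), with no overlap. Tmsb4x, an X-linked gene for the actin-binding peptide thymosin beta 4, was also without overlap, at 0.362 to 2.22 FPKM in cross A (median 0.952) and 2.42 to 24.6 in cross B (median 7.64; 2.21, SE 0.29, adjusted p = 6.11e-05). Hopx (2.19, SE 0.25), Anxa3 (2.14, SE 0.33), Plet1 (2.03, SE 0.35) and Upp1 (1.99, SE 0.37) also rose, each with some cross B libraries inside the range of cross A. These ranges take the injection groups together. For Npy, Stfa2l1 and Hopx, the lower cross B libraries were those given Tfap2c dsRNA. Within every injection group Stfa2l1, Hopx and Anxa3 did not overlap between crosses. Npy and Plet1 overlapped within Tfap2cKD, and Upp1 within DoubleKD.

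Pseudogenes of ribosomal proteins were among the 15 largest falls of genes with at least 5 FPKM in a cross and the same sign in all 4 injection groups. Rps3a3 (chr13:108670580-108671443) ran from 109.5 to 257 FPKM in cross A (median 219) and from 10.9 to 18.4 in cross B (median 15.6; -3.60, SE 0.17, adjusted p = 7.62e-09). Gm15772 (chr5:3236390-3236928) ran from 251 to 685 FPKM in cross A (median 374) and from 34.2 to 44.5 in cross B (median 37.9; -3.33, SE 0.14, adjusted p = 5.32e-09), and Rps2-ps13 on the X chromosome fell as well (-1.70, SE 0.14, adjusted p = 2.48e-06). None of these 3 overlapped between crosses. The functional gene Rps3a1 went the other way, at 1362 ± 144 FPKM in cross A and 1624 ± 82.7 in cross B (SD, n = 8 each; 0.26, SE 0.06, adjusted p = 0.00489). Added together, Rps3a1 and Rps3a3 came to 1566 ± 107 FPKM in cross A and 1639.6 ± 81.9 in cross B (SD, n = 8 each), ranges that overlapped (1424 to 1783 and 1530.4 to 1795). Rps2 showed no call (0.12, SE 0.13, adjusted p = 0.515). Near-identical copies share reads, so how the reads were divided between a copy and its parent gene is uncertain in all of these. Of the 82 cytosolic ribosomal protein genes, 14 rose (17.1%) and 9 fell (11%), with a median of 0.01 (14 falls without dsGFP_A2). Over all genes 17.2% rose and 16.3% fell.

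Protein-coding genes were among the 15 falls too. Mgarp, which encodes a mitochondrial protein, ran from 23.8 to 54.2 FPKM in cross A (median 37.3) and from 5.53 to 14.1 in cross B (median 10.1; -1.88, SE 0.18, adjusted p = 7.34e-06). Tmem256 ran from 11.9 to 19.1 FPKM in cross A (median 15.7) and from 2.15 to 7.52 in cross B (median 3.46; -1.72, SE 0.15, adjusted p = 3.79e-06). Uchl1, a ubiquitin hydrolase of the oocyte and neurons, fell by 1.96 (SE 0.33, adjusted p = 0.0005) with overlap, from a median of 42.4 FPKM to 8.87. Its difference was -0.60 in dsGFP, -2.77 in Tfap2cKD, -3.18 in Tead4KD and -1.28 in DoubleKD (interaction adjusted p = 0.0944). Only 2 genes were listed at 0 in all 8 libraries of one cross and at 1 FPKM or more in at least 6 of the other: the predicted genes Gm5514 (chr19:21937283-21938567; 1.87 to 9.48 FPKM in cross A) and Gm20513 (chr17:599483-612105; 0.467 to 6.81 FPKM in cross A), both at 0 in cross B.

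More X-linked genes fell than rose in cross B. Of 459 X-linked genes tested, 143 fell and 31 rose, with a median of -0.16, against 1650 falls and 1843 rises among 10429 autosomal genes with a median of 0.01. Past 2-fold, 25 X-linked genes remained (5.45%), 20 of them lower, while the autosomal share was 2.74%. Of these 20, 6 lay in the run of Xlr genes and their neighbours described below, and 4 and 1 in runs of Rhox genes. The excess past 2-fold is thus not spread evenly over the chromosome. Xist, the RNA that coats the inactive X, ran from 4.23 to 8.58 FPKM in cross A (median 6.22) and from 1.7 to 7.32 in cross B (median 3.43; -0.60, SE 0.23, adjusted p = 0.0511). Of the Y-linked genes, Uty (-0.48, SE 0.13, adjusted p = 0.0136) and Eif2s3y (-0.42, SE 0.15, adjusted p = 0.0481) fell and Ddx3y did not pass (-0.51, SE 0.25, adjusted p = 0.126). The call for Eif2s3y was lost on leaving out any 1 of 13 libraries, at an adjusted p of up to 0.1. The sexes of the pooled embryos are not given in the labels, and their part in these X-linked values was not tested.

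**Figure D3:**
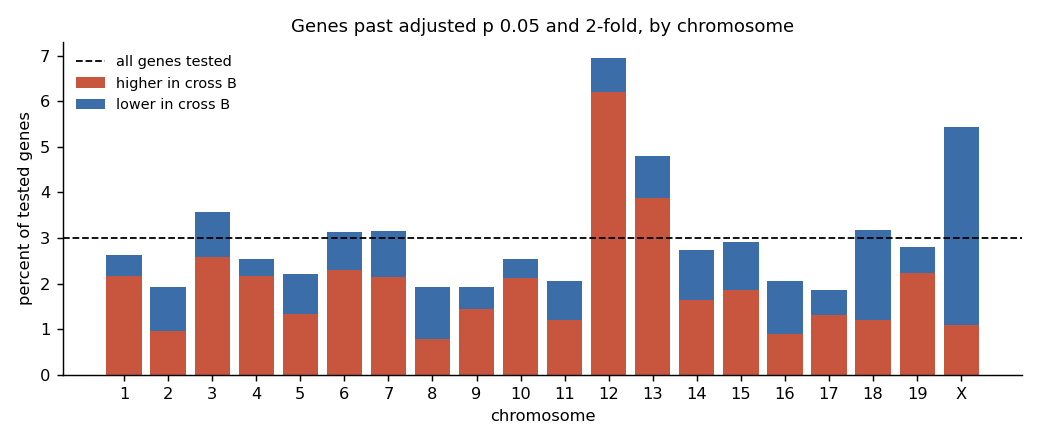
Percent of tested genes on each chromosome (x axis) that passed an adjusted p of 0.05 and differed by more than 2-fold (y axis), stacked as higher (red) and lower (blue) in cross B, with the share over all genes tested (2.99%) as a dashed line. Chromosome 12 has the highest share (6.95%, 25 of 28 genes higher), the X chromosome has 5.45% (20 of 25 lower) and chromosome 13 has 4.79% (17 of 21 higher).

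The Rhox and Xlr clusters held the 2 longest stretches of neighbouring genes that fell. Rhox genes encode homeobox proteins of the reproductive tract, placenta and embryo, and Xlr genes encode nuclear proteins of germ cells and lymphocytes related to those of the synaptonemal complex. Of 13 Rhox genes tested, 11 fell and none rose (median -0.83), and of 12 Xlr genes 10 fell and none rose (median -0.67). Rhox5, the family member best known from the embryo (chrX:37754608-37808878), ran from 12.2 to 26.6 FPKM in cross A (median 18) and from 0.974 to 6.23 in cross B (median 4.35; -2.04, SE 0.25, adjusted p = 5.08e-05). Rhox2a ran from 1.33 to 5.38 FPKM in cross A (median 3.57) and from 0 to 0.657 in cross B (median 0.226; -1.75, SE 0.19, adjusted p = 1.47e-05), and Rhox2e from 0.522 to 1.75 against 0 to 0.368 (-1.06, SE 0.1, adjusted p = 7.34e-06). Rhox1 fell by 1.73 (SE 0.23, adjusted p = 8.99e-05) with overlap. Rhox13 (0.33) and Xlr itself (0.37), which lies outside the run, did not pass (adjusted p = 0.347 and 0.367), nor did Rhox3f and Xlr4e-ps.

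Some copies within these clusters are nearly the same in sequence at their starts. In RefSeq (GRCm38.p6), the 300 bases around the starts of Rhox2a and Rhox2e agree at 299, and 278 compared bases of Rhox2a and Rhox2b agree at all 278. The 250 bases before an annotated start of Rhox2a (chrX:37244742-37244991, plus strand) and Rhox2e (chrX:37530218-37530467, plus strand) are shown to make the likeness visible, with the single base that differs in capitals.
Rhox2a: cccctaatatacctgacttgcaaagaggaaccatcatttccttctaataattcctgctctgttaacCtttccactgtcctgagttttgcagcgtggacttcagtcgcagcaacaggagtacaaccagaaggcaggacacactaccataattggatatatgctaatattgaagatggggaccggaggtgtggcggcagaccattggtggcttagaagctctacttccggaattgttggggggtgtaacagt
Rhox2e: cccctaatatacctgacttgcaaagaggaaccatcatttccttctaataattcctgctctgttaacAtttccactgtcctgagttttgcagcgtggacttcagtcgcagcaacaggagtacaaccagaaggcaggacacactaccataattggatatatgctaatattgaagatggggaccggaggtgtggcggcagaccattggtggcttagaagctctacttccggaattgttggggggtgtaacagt
These windows lie mostly outside the transcripts, and transcript sequences were not compared. How reads were divided among copies of 1 subfamily is uncertain.

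The longest run held 12 neighbouring tested genes (chrX:72913565-73293863), all lower in cross B, with a median of -0.97. It starts with Cetn2, Nsdhl and Pnma5 and goes on through 9 Xlr genes. Xlr3a ran from 5.82 to 11.9 FPKM in cross A (median 9.62) and from 2.29 to 4.37 in cross B (median 3.02; -1.28, SE 0.11, adjusted p = 3.02e-06). Xlr3b ran from 3.55 to 8.38 FPKM in cross A and from 1.36 to 2.19 in cross B (-1.36, SE 0.12, adjusted p = 3.49e-06), also with no overlap. Xlr5a (-1.39, SE 0.17) and Xlr5c (-1.44, SE 0.24) did not overlap between crosses, while Xlr5b (-1.26, SE 0.19) did. The Xlr4 copies had smaller differences, of -0.65 for Xlr4a, -0.49 for Xlr4b and -0.67 for Xlr4c. Nsdhl, an enzyme of cholesterol synthesis and no member of the Xlr family, ran from 2.17 to 4.84 FPKM in cross A (median 3.31) and from 0.152 to 1.53 in cross B (median 0.957; -1.24, SE 0.15, adjusted p = 4.66e-05). The region before the start of Xlr5a (chrX:73117703-73117952, minus strand) is shown with the 205 bases that are found unchanged before the start of Xlr5b in capitals, to show the likeness of this pair. Other pairs are less alike, such as Xlr3b and Xlr3c, which agree at 255 of 280 compared bases.
Xlr5a: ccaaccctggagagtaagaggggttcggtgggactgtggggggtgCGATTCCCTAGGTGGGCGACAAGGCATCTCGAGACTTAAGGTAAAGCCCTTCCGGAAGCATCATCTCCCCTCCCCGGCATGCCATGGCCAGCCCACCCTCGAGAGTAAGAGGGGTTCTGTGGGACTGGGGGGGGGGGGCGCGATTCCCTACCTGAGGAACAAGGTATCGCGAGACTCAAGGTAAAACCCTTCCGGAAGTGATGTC

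Runs of at least 3 neighbouring called genes in 1 direction numbered 111 (64 higher, 47 lower), and 6 held 5 genes or more. With 17.2% of genes called higher and 16.3% lower, short runs also arise in a random order. How many would do so was not worked out. Besides the 2 on the X chromosome, 7 genes on chromosome 10 that include Ifng (chr10:118324535-118445894) were higher, with a median of 0.87. On chromosome 15 a run of 5 genes of the Ly6 cell-surface family was higher. In it, Ly6a, known as Sca-1, ran from 1.16 to 174 FPKM in cross A (median 42.1) and from 14.1 to 322 in cross B (median 101; 1.94, SE 0.3, adjusted p = 0.000247). Its levels spread widely within each cross and overlapped. On chromosome 9 a run of 5 Fbxw genes, which encode F-box proteins of ubiquitin ligases, was lower (chr9:109378400-109626059, median -0.88). Fbxw24 ran from 7.76 to 11.3 FPKM in cross A (median 8.39) and from 3.07 to 6.58 in cross B (median 4.65; -0.80, SE 0.13, adjusted p = 0.000406), and Fbxw22 (-1.14, SE 0.13) and Fbxw16 (-0.89, SE 0.11) likewise did not overlap. Positions are descriptive and carry no test.

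Many transcripts of zygotic genome activation were higher in cross B. Of 47 tested members of the list, 26 rose (55.3%) and 2 fell (4.26%), where 17.2% of all genes rose and 16.3% fell. The median was 0.75 against 0.01 over all genes. Zfp352, an early-embryo zinc finger gene (chr4:90218820-90225687), ran from 0.274 to 4.29 FPKM in cross A (median 0.987) and from 7.9 to 36 in cross B (median 9.2; 2.49, SE 0.2, adjusted p = 2.03e-06). Its 8 cross B libraries all lay above cross A, 7 of them between 7.9 and 12.3 FPKM and DoubleKD_B1 at 36. Tdpoz3, of a family of TRAF and BTB domain genes, also did not overlap (0.25 to 0.732 FPKM against 1.01 to 7.54; 1.24, SE 0.21, adjusted p = 0.000558). Pramef25 rose from a median of 0.853 FPKM to 6.03 (1.97, SE 0.31, adjusted p = 0.000288), and Usp17lb, of a family of ubiquitin proteases, from 2.49 to 7.59 (adjusted p = 0.00547). Arg2, an arginase, rose from a median of 11.9 to 37.2 FPKM (1.43, SE 0.16, adjusted p = 2.45e-05), and Ddit4l, an inhibitor of mTOR signalling, from 31.9 to 54.2 (0.75, SE 0.1, adjusted p = 7.43e-05). Obox6, an oocyte and embryo homeobox gene and 1 of the 2 falls, went from a median of 1244 to 853 FPKM (-0.53, SE 0.08, adjusted p = 0.00026), and the other was Dppa4, whose call was lost on leaving out any 1 of 6 libraries (adjusted p up to 0.0595).

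The sequence before the start of Zfp352 (chr4:90218570-90218819, plus strand, RefSeq GRCm38.p6) is shown because this gene separated the crosses in every library. It is repetitive, and the 7 copies in it of AGGACAACACAC, searched on both strands, are in capitals. No other 12-base word has more copies in this window. Among 32851 promoter windows of the same length, 1 held that motif, the window of Zfp352 itself. The word was taken from this window, so that match was fixed in advance. How many matches any 12-base word would have by chance was not worked out.
Zfp352: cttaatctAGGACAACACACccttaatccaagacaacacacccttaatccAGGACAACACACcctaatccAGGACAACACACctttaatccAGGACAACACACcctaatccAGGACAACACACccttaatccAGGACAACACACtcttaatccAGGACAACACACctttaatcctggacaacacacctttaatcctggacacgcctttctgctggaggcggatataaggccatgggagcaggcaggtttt
No value here bears on whether the repeat has a role in expression.

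The size of the difference varied among injection groups and libraries. The list's median level per library, as log2(FPKM + 1), ran from 1.38 to 2.06 in cross A and from 1.84 to 4.34 in cross B. Its median difference was 0.42 in dsGFP, 0.88 in Tfap2cKD, 0.29 in Tead4KD and 1.32 in DoubleKD. The library DoubleKD_B1 stood apart for many members, with Zscan4d at 24.6 FPKM against 0.165 to 8.0 in the other cross B libraries and Tcstv3 at 63.4 against at most 14. Gm5662, an Eif1a-like gene on chromosome 12, was at 124 and 74.8 FPKM in DoubleKD_B1 and DoubleKD_B2, at 7.8 to 13.3 in the other 6 cross B libraries and at 1.54 to 4.42 in cross A (2.43, SE 0.38, adjusted p = 0.0003). Without DoubleKD_B1 the list gave 24 rises, 1 fall and a median of 0.55, and without both DoubleKD_B libraries, a choice made after seeing the data, 22 rises, 1 fall and a median of 0.48. Among the 21 members with at least 1 FPKM in all 16 libraries, 7 rose, 2 fell and the median was 0.09. In dsGFP alone 4 rose and 1 fell. The call for Zscan4d itself was lost on leaving out any 1 of 5 libraries (adjusted p up to 0.0694), and its difference in dsGFP alone was -0.04. Members of these families have near-identical copies, so their single values are uncertain.

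**Figure D4:**
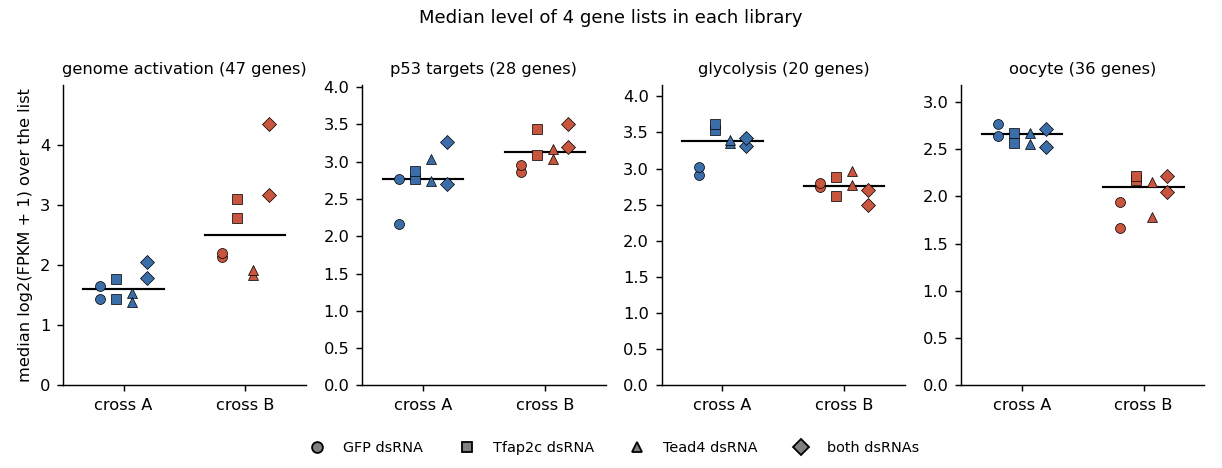
Median log2(FPKM + 1) over the tested genes of 4 lists (y axis, from 0) in each library of cross A (blue) and cross B (red), with shape for the injected dsRNA and a line at the median of 8 libraries. The genome activation list runs from 1.38 to 2.06 in cross A and from 1.84 to 4.34 in cross B, with DoubleKD_B1 highest, while the oocyte list runs from 2.52 to 2.76 in cross A and from 1.66 to 2.21 in cross B. The level of a list rests on its middle-ranked genes. The median difference of single genes was -0.20 for the oocyte list and -0.06 for glycolysis.

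Targets of the tumour suppressor p53, which halts the cell cycle after DNA damage, gave 14 rises (50%) and 1 fall (3.57%) in cross B among 28. Of all genes, 17.2% rose and 16.3% fell. Another 13 targets did not pass, and the median was 0.34 (13 rises and 1 fall without both DoubleKD_B libraries). Cdkn1a, the cell cycle inhibitor p21, ran from 56.2 to 266 FPKM in cross A (median 183) and from 147 to 567 in cross B (median 445; 1.26, SE 0.1, adjusted p = 2.03e-06). Its cross B libraries at 147 and 197 FPKM were the 2 with dsGFP, whose cross A counterparts were at 56.2 and 87.8 FPKM. Within the injection groups the difference was 1.13 to 1.35. Ephx1, an epoxide hydrolase, ran from 0.943 to 2.71 FPKM in cross A (median 1.53) and from 5.0 to 10.1 in cross B (median 5.78; 1.47, SE 0.14, adjusted p = 7.14e-06). Ccng1, cyclin G1, ran from 3.96 to 21.8 FPKM in cross A (median 10.6) and from 22.2 to 41 in cross B (median 28.2; 1.30, SE 0.2, adjusted p = 0.000237), and neither Ephx1 nor Ccng1 overlapped. Plk2, a kinase (1.23, SE 0.22), Perp, a membrane protein of desmosomes (1.03, SE 0.18), Trp53inp1 (0.76, SE 0.12) and Mdm2, the ubiquitin ligase that degrades p53 (0.50, SE 0.12), rose as well. Ei24 was the fall (-0.59, SE 0.14, adjusted p = 0.00451).

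Clustered histone genes, whose main transcripts lack a poly(A) tail, gave 22 rises (50%) and 1 fall (2.27%), Hist1h1a, among 44. Their median was 0.39, and 17.2% of all genes rose and 16.3% fell. The H2A genes of the large cluster rose together, with 12 of 15 Hist1h2a genes called higher and none lower. Hist1h2ag ran from 299.9 to 539 FPKM in cross A (median 475) and from 573 to 1007 in cross B (median 668; 0.64, SE 0.12, adjusted p = 0.000881). Hist1h2ak ran from 8.85 to 14 FPKM in cross A (median 10.8) and from 14.1 to 26.5 in cross B (median 20.5; 0.78, SE 0.08, adjusted p = 1.57e-05). Hist2h2aa2 was without overlap too, at 1.05 to 2.1 against 3.34 to 6.75 FPKM (1.06, SE 0.12, adjusted p = 3e-05). Histone genes of 1 type are near-identical, and how reads were divided among them is uncertain. Polyadenylated RNA was captured in these libraries, and the part of poly(A) capture in the histone values was not tested.

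**Figure D5:**
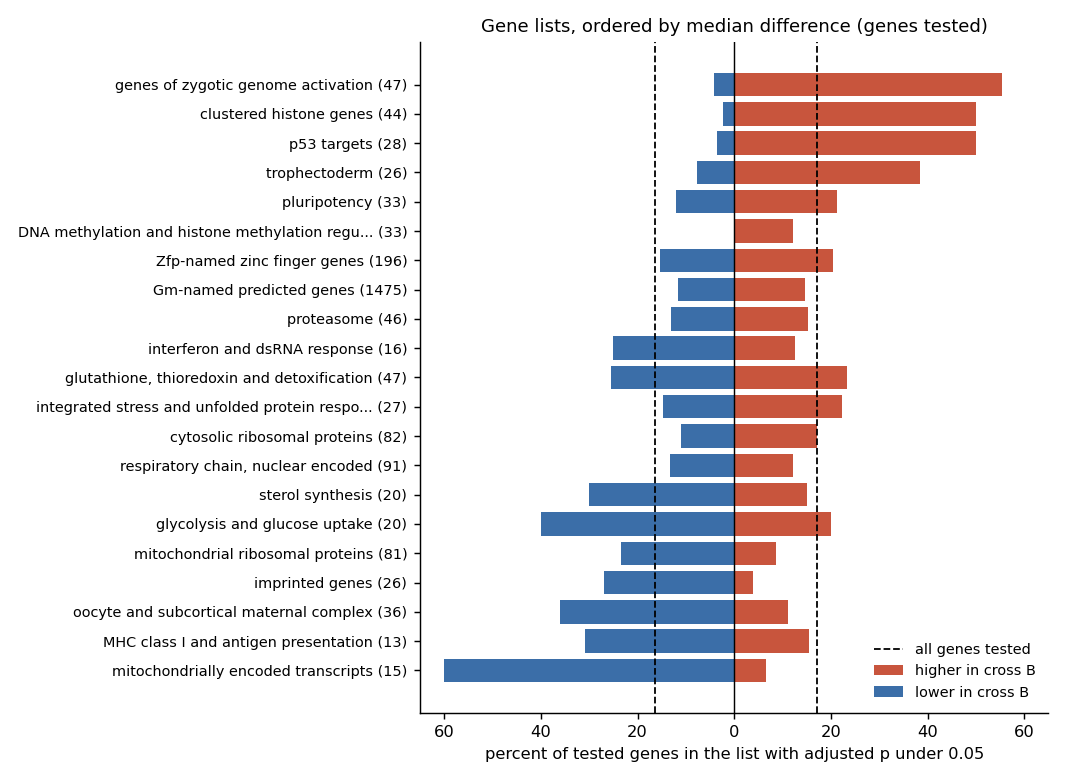
Percent of the tested genes in each of 21 lists that were higher (red, to the right) or lower (blue, to the left) in cross B at an adjusted p under 0.05, with the number of genes tested in brackets and lists in the order of their median difference. Dashed lines mark the shares over all genes tested (17.2% higher, 16.3% lower), and the lists of genome activation, histones and p53 targets lie farthest to the right.

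Maternal transcripts more often fell than rose in cross B. The list holds 36 tested genes of the oocyte and the subcortical maternal complex, a protein assembly of the egg that the cleaving embryo needs. Of these, 13 fell (36.1%) and 4 rose (11.1%), with a median of -0.20, where 16.3% of all genes fell and 17.2% rose. Leaving out any of 6 single libraries (DoubleKD_A1, DoubleKD_A2, Tead4KD_A2, dsGFP_A2, Tead4KD_B2 or dsGFP_B1) left 2 rises and 11 or 12 falls. The list's median level per library ran from 2.52 to 2.76 in cross A and from 1.66 to 2.21 in cross B, as log2(FPKM + 1), with no overlap. That level depends on the middle-ranked genes alone. Gene by gene the shift was smaller, at the median of -0.20, and 19 of the 36 genes did not pass. Oosp1, an oocyte-secreted protein, ran from 3.81 to 15.7 FPKM in cross A (median 7.55) and from 1.07 to 2.54 in cross B (median 1.57; -1.67, SE 0.2, adjusted p = 3.47e-05). Nlrp5, the complex member known as Mater, ran from 1.7 to 2.52 FPKM in cross A and from 0.946 to 1.67 in cross B (-0.39, SE 0.09, adjusted p = 0.00288), again without overlap. Tle6, another member of the complex (-0.60, SE 0.15), Nlrp14 (-0.62, SE 0.12), Btg4, an adaptor for clearance of maternal mRNA (-0.77, SE 0.17), the germ cell helicase Ddx4 (-0.62, SE 0.12) and the chromatin factor Npm2 (-0.70, SE 0.12) fell. Khdc3, also of the complex, rose (0.44, SE 0.15, adjusted p = 0.0379), and so did the oocyte gene Oog3 (1.14, SE 0.15, adjusted p = 6.69e-05) and Zfp57 (0.72, SE 0.09, adjusted p = 3.45e-05), the last 2 with no overlap. The calls for Khdc3 and for the growth factor gene Gdf9 (-0.45, SE 0.16, adjusted p = 0.0412) were each lost on leaving out any 1 of 10 libraries, at adjusted p values up to 0.0803 and 0.0833. Zp3, of the zona pellucida (-0.26, SE 0.19, adjusted p = 0.331), and Dppa3 (0.09, SE 0.05, adjusted p = 0.219) did not pass.

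Zfp57 is also a guardian of imprints, the parent-specific methylation of certain genes. Imprinted genes gave 7 falls (26.9%) and 1 rise (3.85%), Ddc, among 26, with a median of -0.19. Gab1 ran from 4.59 to 5.77 FPKM in cross A (median 4.7) and from 1.58 to 3.61 in cross B (median 2.73; -0.73, SE 0.1, adjusted p = 0.000114). Nap1l4 ran from 25.9 to 32.3 FPKM in cross A and from 14.5 to 23.7 in cross B (-0.53, SE 0.08, adjusted p = 0.000143). Both were without overlap, while Usp29 (-0.91, SE 0.16) and Sgce (-0.58, SE 0.11) fell with overlap. Regulators of DNA and histone methylation gave 4 rises (12.1%) and no fall among 33 (median 0.09), where 17.2% of all genes rose and 16.3% fell. Besides Zfp57, the rises were Dnmt3l (0.42, SE 0.09), Kdm5a (0.50, SE 0.11) and Kdm1a (0.22). The call for Kdm1a was lost on leaving out any 1 of 9 libraries (adjusted p up to 0.0805).

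Transcripts of the mitochondrial genome, which comes from the mother, were lower in cross B for 9 of 15 genes, higher for 1, and had a median of -0.34. These counts go with the lower mitochondrial share of the libraries given above. mt-Nd1, a subunit of complex I, ran from 8747 to 10471 FPKM in cross A (median 9909) and from 5616 to 7281 in cross B (median 6609.7; -0.60, SE 0.05, adjusted p = 3.6e-06). mt-Cytb, of complex III, ran from 17419 to 22151 FPKM in cross A and from 9882 to 15378 in cross B (-0.54, SE 0.09, adjusted p = 0.000354). mt-Co1, of complex IV, ran from 3844 to 4479 FPKM in cross A and from 2592 to 3657 in cross B (-0.41, SE 0.06, adjusted p = 0.000111). The 12S ribosomal RNA, mt-Rnr1, went up, from 945 to 1161 FPKM in cross A (median 1028) to 1305 to 1637 in cross B (median 1512; 0.51, SE 0.06, adjusted p = 5.46e-05). All 4 of these separated the crosses in every library. The genes that build the respiratory chain from the nucleus showed 11 rises and 12 falls among 91 (12.1% and 13.2%, median -0.02). Mitochondrial ribosomal proteins gave 7 rises and 19 falls among 81 (8.64% and 23.5%, median -0.08). The shares over all genes were 17.2% and 16.3%.

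Of 20 tested genes of glycolysis and glucose uptake, 8 fell (40%) and 4 rose (20%) in cross B, with a median of -0.06. The shares over all genes were 16.3% and 17.2%, so the share of rises was near that over all genes. The falls included the lactate dehydrogenases Ldha and Ldhb, and the rises were Hk2, Pfkp and the glucose transporters Slc2a1 and Slc2a8. The call for Pfkp was lost on leaving out any 1 of 9 libraries (adjusted p up to 0.0731). Ldha, a lactate dehydrogenase, ran from 5.35 to 18.6 FPKM in cross A (median 10.8) and from 1.6 to 3.72 in cross B (median 2.86; -1.65, SE 0.2, adjusted p = 4.21e-05). Pgk1, X-linked, ran from 9.11 to 13.6 FPKM in cross A (median 11.1) and from 4.29 to 6.49 in cross B (median 5.55; -0.90, SE 0.1, adjusted p = 2.4e-05). Tpi1 (3.4 to 9.38 against 1.33 to 3.3 FPKM; -0.96, SE 0.12) and Ldhb (11.5 to 15.1 against 4.95 to 9.8 FPKM; -0.71, SE 0.11) did not overlap either. Gapdh (-1.32, SE 0.22, adjusted p = 0.000451) and Pkm (-0.72, SE 0.11, adjusted p = 0.000286) fell with overlap. Hk2, a hexokinase (0.72, SE 0.16, adjusted p = 0.00323), and Slc2a1, the glucose transporter GLUT1 (0.70, SE 0.1, adjusted p = 9.69e-05), rose. In dsGFP alone 1 gene fell, Pgk1, and 4 rose, and the difference for Ldha was -0.85 there against -2.40 in DoubleKD (interaction adjusted p = 0.133). Gapdh, Pkm, Ldhb and Hk2 were chosen after their values were seen.

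Sterol synthesis gave 6 falls (30%) and 3 rises (15%) among 20 (median -0.03), where 16.3% of all genes fell and 17.2% rose. It had 5 rises without DoubleKD_B1 and 4 falls without Tead4KD_B2. Fdps, which makes farnesyl diphosphate, ran from 119 to 323 FPKM in cross A (median 223) and from 52.6 to 144 in cross B (median 87.8; -1.20, SE 0.12, adjusted p = 6.88e-06). X-linked Ebp fell (-0.70, SE 0.11), as did Nsdhl in the Xlr run, whereas Sqle (0.35, SE 0.08) and the sterol carrier Stard4 (1.18, SE 0.26, adjusted p = 0.0033) rose. Glutathione, thioredoxin and detoxification genes went both ways, with 11 rises (23.4%) and 12 falls (25.5%) among 47. Cat, which encodes catalase, rose from a median of 2.95 to 9.56 FPKM (1.32, SE 0.2, adjusted p = 0.000212), and Gss, glutathione synthetase, from 3.03 to 6.56 (1.17, SE 0.16, adjusted p = 0.000123). Gsta4, a glutathione transferase, fell from a median of 22.7 to 8.48 FPKM (-1.28, SE 0.13, adjusted p = 7.14e-06), Glrx5, of iron-sulfur cluster assembly, from 38.2 to 19.7 (-1.03, SE 0.14) and Gpx4, which removes lipid peroxides, from 449.9 to 327 (-0.49, SE 0.11, adjusted p = 0.00439).

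Genes of the trophectoderm, the outer lineage that forms placenta, gave 10 rises and 2 falls among 26 (38.5% and 7.69%, median 0.28). Id2, an inhibitor of basic helix-loop-helix factors, ran from 0.982 to 2.68 FPKM in cross A (median 1.66) and from 4.71 to 15.9 in cross B (median 5.64; 1.53, SE 0.18, adjusted p = 3.37e-05) with no overlap. Hand1 rose from a median of 33.8 to 60.7 FPKM (0.74, SE 0.11, adjusted p = 0.000195). Calls for Gata3 (0.58, SE 0.21, adjusted p = 0.0484), Krt8 (0.69, SE 0.23, adjusted p = 0.0287) and Krt18 (0.69, SE 0.25, adjusted p = 0.0451) were lost on leaving out 1 library, for 10, 5 and 12 of the 16 libraries, with adjusted p up to 0.0995. The list had 5 rises in place of 10 without dsGFP_A1 or Tead4KD_A2, and 6 without Tfap2cKD_A2, Tead4KD_A1, dsGFP_A2, Tead4KD_B2 or dsGFP_B1. The tight junction gene Cldn6 (-1.11, SE 0.22, adjusted p = 0.0018) and the water channel Aqp9 (-0.42, SE 0.06, adjusted p = 0.0001) fell. Pluripotency genes gave 7 rises and 4 falls among 33 (21.2% and 12.1%, median 0.20), beside 17.2% and 16.3% over all genes. Utf1 rose from a median of 11.4 to 31.5 FPKM (1.17, SE 0.21), Nr5a2 rose (0.43, SE 0.08) and Klf17 fell from 127 to 61.1 (-0.82, SE 0.15). Pou5f1 (0.23, SE 0.18, adjusted p = 0.37) and Nanog (0.40, SE 0.24, adjusted p = 0.213) did not pass. The 7 rises became 4 without DoubleKD_A1, DoubleKD_B2 or dsGFP_B2, and the 4 falls became 2 without DoubleKD_A2, Tfap2cKD_A2, DoubleKD_B1 or dsGFP_B1. Primitive endoderm genes gave 2 rises among 9, Dab2 and Fgfr2, both also on the trophectoderm list. The call for Dab2 was lost on leaving out any 1 of 12 libraries (adjusted p up to 0.0815), and in dsGFP alone no gene of the list rose.

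Genes of antigen presentation, which differ in sequence between the parental strains, gave 2 rises and 4 falls among 13 (median -0.21). H2-D1 ran from 4.54 to 23.1 FPKM in cross A and from 15.1 to 33.6 in cross B (1.01, SE 0.22, adjusted p = 0.00305). Its difference was 1.79 in dsGFP and 1.67 in Tead4KD, but 0.32 in Tfap2cKD and 0.24 in DoubleKD (interaction adjusted p = 0.0635). H2-Q4 rose (0.63, SE 0.11), while the immunoproteasome subunit Psmb10 fell from a median of 8.94 to 3.75 FPKM (-1.02, SE 0.12, adjusted p = 3.42e-05) and Tapbp fell (-0.48, SE 0.1). B2m did not pass (-0.21, SE 0.1, adjusted p = 0.125). Reads from H2 alleles that differ from the C57BL/6J reference may map less well, and the part of mapping was not tested. Of 12 genes with known strain variants, 4 could be tested and none passed, among them Glo1 (0.25, SE 0.16, adjusted p = 0.269) and Alad (-0.12, SE 0.12, adjusted p = 0.482). The interferon and dsRNA response gave 2 rises, Irf9 and Ifi35, and 4 falls among 16, including Ifi27 (-0.69, SE 0.12) and Stat2 (-0.65, SE 0.12). The integrated stress response gave 6 rises and 4 falls among 27, with Shmt2 (-0.98, SE 0.16) and Pdia4 (-0.51, SE 0.08) among the falls. The proteasome gave 7 rises and 6 falls among 46, and leaving out 1 library moved the rises to between 3 and 12. Zinc finger genes named Zfp gave 40 rises and 30 falls among 196, predicted genes named Gm 215 and 173 among 1475, and the X-inactivation list no rise and 1 fall, Ftx, among 4. Over all genes 17.2% rose and 16.3% fell. The shares were 15.2% and 13% for the proteasome, 20.4% and 15.3% for Zfp genes and 14.6% and 11.7% for Gm genes, near or below those over all genes.

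Markers of cells outside the embryo were few. Of 20 cumulus cell markers only Gja1 reached the filter, a gap junction gene that embryos also express (218 to 364 FPKM in cross A, 201 to 328 in cross B; -0.13, SE 0.1, adjusted p = 0.344). The protamines Prm1 and Prm2 of sperm were at most 0.909 FPKM. Of the 2 sperm-list genes tested, Odf2 rose (0.57, SE 0.12, adjusted p = 0.00225) and Ldhc fell (-0.61, SE 0.16, adjusted p = 0.00822). Only Odf2 of that list reached 1 FPKM in all 16 libraries, so the sum of sperm markers below does not speak for the list as a set. Blood markers fell for Hba-a1 (-0.66, SE 0.19, adjusted p = 0.0136) and Hba-a2 (-0.58, SE 0.16, adjusted p = 0.013), 2 near-identical globin genes. Summed blood markers ran from 25.2 to 84.6 FPKM in cross A and from 11.2 to 71.4 in cross B (exact permutation p = 0.0725, adjusted 0.116), summed cumulus markers from 218 to 364 and from 201 to 329 (exact permutation p = 0.262, adjusted 0.35), and summed sperm markers from 5.86 to 8.65 and from 7.21 to 12.9 (exact permutation p = 0.0123, adjusted 0.0329). Their part in the results above was not tested.

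Of the 11422 genes, few passed a test of whether the cross difference depended on the injected dsRNA. In an interaction test, 58 genes passed (0.508%), 28 of which were also called for cross. An unadjusted p under 0.05 was reached by 2099 (18.4%), a larger share than that threshold alone would give. With 2 libraries per injection group and cross, the low count does not show that the cross difference was alike in all groups. Leaving out 1 library moved the count of 58 to between 0 and 179, with 179 reached without DoubleKD_B2 and 0 without either dsGFP_A library, either Tead4KD_B library or Tfap2cKD_B2. Gata4, a primitive endoderm factor, was lower in cross B with dsGFP (-0.87) and Tead4KD (-1.04), higher with Tfap2cKD (1.31) and near even with DoubleKD (0.08; interaction adjusted p = 0.029). H2-K1 was higher in cross B with dsGFP (0.67) and Tead4KD (0.97) and lower with Tfap2cKD (-0.98) and DoubleKD (-0.88; interaction adjusted p = 0.036), which left its overall difference at -0.05 (SE 0.25). The Eif1a-like genes Gm5662 and Gm2016 were higher in cross B in all 4 groups, by 4.72 and 4.51 with DoubleKD and by 1.16 to 1.86 in the others (interaction adjusted p = 0.0448 and 0.0484).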

How the data were processed

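Poly(A) RNA of pooled embryos was amplified by Smart-seq2, per the labels' protocols. The authors deposited FPKM values per gene for 16 libraries. CASAVA, Trim Galore, STAR, Cufflinks and the build mm10 are named in the submitters' processing notes. The sources used here give no versions, settings or annotation for them. STAR and Cufflinks settings decide how reads of near-identical copies are divided. Of 43496 lines, 59 repeated an identifier and were summed, and 27 gene names turned into dates by a spreadsheet were restored; 0 columns belonged to other samples.

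Genes at 1 FPKM or more in 4 or more libraries entered the test as log2(FPKM + 1), computed here from the deposited FPKM with a pseudocount of 1, in limma 3.58.1 (R 4.3.3) with cross and injection group as terms and a trended variance, and p values were adjusted by Benjamini-Hochberg over all genes tested. FPKM keep no absolute depth; relative depth was read from the steps between values of low genes. Library measures were compared by an exact two-sided permutation test within injection groups. The fitting script was tested on simulated data. Positions and sequences are RefSeq's (GRCm38.p6), matched by symbol for 31501 genes and by synonym for 1537; 10897 tested genes have one. A run is at least 3 neighbouring tested genes called in 1 direction within 1 Mb.

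The members and the 28 gene lists were chosen with earlier results of these data known. Genes were named by rule: the 15 largest rises and falls with at least 5 FPKM in a cross and 1 sign in all 4 injection groups, up to 4 members of each list by p, genes at 0 in 1 cross, the 5 lowest interaction p values, the 5 longest runs, and a fixed set of markers. Chosen after their values were seen were Zswim5, Hesx1, Gtsf1, Naaa, Bola1, Prl3b1, Isl2, Rps3a1, Rps2, the Fbxw, Tdpoz, Pramef, Usp17l, Tcstv and Zscan4 genes, mt-Cytb, mt-Co1, Nlrp5, Nlrp14, Tle6, Btg4, Ddx4, Gdf9, Khdc3, Mdm2, Perp, Plk2, Ei24, Hist1h2ag, Ldhb, Gapdh, Pkm, Hk2, Sqle, Cldn6, Krt8, Krt18, Cat, Gpx4, Pfkp, Slc2a8, Dppa4, Ddc, Hist1h1a, Rhox13, Xlr, Rhox3f and Xlr4e-ps. Alternatives tried were another pseudocount, 2 other filters, median-ratio and quantile rescaling, removal of mitochondrial genes, no covariate, no or robust variance trend, a replicate block and each library left out. The difference within control libraries was also read, with the spread shared by all 16 libraries.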

Additional observations from a re-analysis of the deposited data

Results flagged for a closer look

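In 25 of 302 groups of 8 libraries (8.28%), the highest or lowest library lay far from the rest by Dixon's criterion, where chance gives about 1 in 20. DoubleKD_B1 accounted for 10 of them, all at the high end of cross B: Zfp352 was at 36 FPKM with the next library at 12.3, Pramef25 at 19.3 (next 8.92), B020031M17Rik at 40.5 (next 9.03), Xlr4a at 9.76 (next 6.33) and Zscan4d at 24.6 (next 8). The same library had Gm21818 at 106 FPKM (next 20.4), Tcstv3 at 63.4 (next 14), Tcstv1 at 13.3 (next 5.95), Ifng at 6.95 (next 3.36) and Usp17lb at 52.5 (next 25.8). Most of these genes belong to the families of early genome activation.

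Other cross B libraries apart from the rest were Tfap2cKD_B1 for Id2 (15.9 FPKM, next 8.94), dsGFP_B2 for Stard4 (49.6, next 25.4), DoubleKD_B2 for Ephx1 (10.1, next 7.38) and Tfap2cKD_B2 for Hist1h2ag (1007, next 749). dsGFP_B2 also had the fewest genes at 1 FPKM or more in cross B, 10049, with the next at 10393.

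In cross A, dsGFP_A2 was high for the sum of Y-linked genes (54 FPKM, next 41.5), Eif2s3y (32.3, next 23.9), Rps3a1 (1673, next 1413), Fbxw22 (3.38, next 2.12) and Pramef25 (2.82, next 1.31). Tead4KD_A1 was high for Gm21818 (3.73 FPKM, next 1.72) and Tcstv1 (3.2, next 1.58), Tead4KD_A2 for Gm5514 (9.48, next 4.99), DoubleKD_A2 for Nlrp5 (2.52, next 2.05) and dsGFP_A1 for Gab1 (5.77, next 4.76).

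The cross difference depended on the injected dsRNA for 4 genes described above, by limma's interaction test with Benjamini-Hochberg adjustment: Gata4 (adjusted p = 0.029), H2-K1 (0.036), Gm5662 (0.0448) and Gm2016 (0.0484). The count of such genes over the table did not hold when single libraries were left out.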

How the results depend on the processing

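The 3823 genes that differed became 2060 without the injection term, 3457 to 3688 with 1 library left out and 3015 without both DoubleKD_B libraries. For the difference within dsGFP, with the spread shared by all 16 libraries, 904 passed. Those past 2-fold numbered 341, 805 with a pseudocount of 0.1, 163 with 1 FPKM required in all 16 libraries, and 324 to 359 with 1 library left out. Higher calls outnumbered lower ones (1965 to 1858), but not under quantile rescaling (1813 to 2094), without mitochondrial genes (1776 to 2093), with 1 FPKM in all 16 libraries (1417 to 1501) or without the injection term (971 to 1089), and they tied without dsGFP_B1 (1760 each). The 58 interaction genes became 38 with a pseudocount of 0.1, 89 under quantile rescaling and 0 to 179 with 1 library left out. The cause was not tested for any of these.

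Replicate numbers do not pair the libraries: deviations of same-numbered libraries correlated at -0.036 to 0.049. With a replicate block 3739 genes passed, 339 of them past 2-fold.

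With 1 library left out, the cross B minus cross A difference ran from -2.32 to -1.6 for the mitochondrial percent, 94.5 to 208 for genes at 1 FPKM (p = 0.0571 without dsGFP_A1 and 0.0602 without dsGFP_A2, exact permutation), -13.3 to -7.57 FPKM for Y-linked genes (p = 0.054 without Tead4KD_B1 and 0.0664 without dsGFP_B2, exact permutation), -17.5 to -8.05 FPKM for blood markers (p = 0.00926 without DoubleKD_A2, 0.0293 without Tfap2cKD_B1 and 0.0463 without dsGFP_B1, exact permutation), -33.9 to -15.7 FPKM for cumulus markers, 1.85 to 2.64 FPKM for sperm markers, -6162 to 9343 for total FPKM and -0.586 to 0.262 for the percent in the top 10 genes.

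Of 143 named genes that passed, 11 lost the call with 1 library left out, 8 without both DoubleKD_B libraries, 28 without the injection term and 73 in dsGFP alone. Signs turned in dsGFP alone for Zp3 (0.42), Nanog (-0.03), Alad (0.30), Tead4 (-0.22), B2m (0.22), H2-K1 (0.67), Xlr4e-ps (0.24) and Zscan4d (-0.04). H2-K1, at -0.05 over all libraries, also turned with some libraries left out (-0.18 to 0.08, among them 0.00, 0.02, 0.04, 0.05 and 0.06) and without both DoubleKD_B libraries (0.22). Absolute depth is unknown, so the counting error of low genes cannot be given.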
